A study of Mus musculus with 30 samples.

Results

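Of the 30 mouse mammary tumours in the series, 10 with the highest and 10 with the lowest joint level of Esr1, Pgr and Areg were compared across all other genes, and the 10 tumours between them were kept apart. The level was a score: for each tumour, the mean over the 3 genes of log2(RPKM + 1) after each gene had been scaled to a mean of zero and unit SD over the 30 tumours. RPKM, a read count scaled by transcript length and library depth, was taken as the unit of the deposited values, which no label states. The groups were therefore defined from measured expression and not by the study's labels, and every value of Esr1, Pgr and Areg below is a description without a test.

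All 30 tumours carried the polyoma middle T antigen (PyMT), an oncogene of a mouse virus that was used here to start the mammary tumours. The animals came from a backcross in which offspring of the wild-derived MOLF strain and PyMT mice were mated to FVB, so that MOLF and FVB segments were shuffled anew in each animal. RNA selected for poly-A tails was sequenced, with 1 tumour per animal. The labels give every tumour the same strain background and tissue and no treatment. Not given in the sources used here are the promoter of the transgene, the age of the animals and how much of each piece was tumour. A tumour is called by its animal's number, and errors cover the spread between animals and any technical variation together.

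In the mammary gland, a subset of luminal epithelial cells carries the oestrogen receptor alpha, encoded by Esr1, and the progesterone receptor, encoded by Pgr. These hormone-sensing cells pass ovarian signals on to their neighbours through secreted factors. Areg encodes amphiregulin, a membrane-bound ligand of the epidermal growth factor receptor that oestrogen induces in ductal epithelium and that the protease Adam17 sheds. Pgr is itself a classical oestrogen receptor target. PyMT tumours are known to lose hormone receptor expression as they progress.

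The 3 marker genes lie on different chromosomes, Esr1 on chromosome 10, Pgr on chromosome 9 and Areg on chromosome 5. The 250 bases before the start sites of Areg and Pgr are shown because these genes set the score and are both known as hormone-responsive. They were taken from RefSeq on GRCm38.p6 and are written 5′ to 3′ on the plus strand, with the match to the cAMP response element TGACGTCA in capitals.
Areg, chr5:91139349-91139598: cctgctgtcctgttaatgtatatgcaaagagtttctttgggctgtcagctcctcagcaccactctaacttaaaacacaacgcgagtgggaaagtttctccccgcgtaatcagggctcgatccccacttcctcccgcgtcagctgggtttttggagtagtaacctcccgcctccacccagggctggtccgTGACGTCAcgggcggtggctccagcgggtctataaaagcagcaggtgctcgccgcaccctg
Pgr, chr9:8899583-8899832: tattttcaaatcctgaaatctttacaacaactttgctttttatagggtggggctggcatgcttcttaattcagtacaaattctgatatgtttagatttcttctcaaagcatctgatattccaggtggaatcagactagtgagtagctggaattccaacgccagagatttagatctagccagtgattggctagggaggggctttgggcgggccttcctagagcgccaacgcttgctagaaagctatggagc
The cAMP response element matched once before Areg, in these letters on either strand, and such a match was found in 1.55% of 32851 windows of the same length. It had no match before Pgr or in the windows before either annotated start of Esr1. The full oestrogen response element (GGTCA and, after 3 bases, TGACC; 0.0639% of windows), its half-site GGTCA (35.2%) and the TGTTCT half-site of the progesterone and glucocorticoid receptors (16.1%) were searched on both strands and had no match in these windows; the half-site GGTCA is contained in the full element.

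All 3 markers were expressed at low levels. Over 30 tumours Esr1 ranged from 0.315 to 5.59 RPKM (median 1.74), Areg from 0.14 to 4.03 RPKM (median 0.852) and Pgr from 0.02 to 0.709 RPKM (median 0.0855). Pgr was below 1 RPKM in every tumour. With the library depths recovered from the steps between low values, these levels correspond to an estimated 58.0 to 4240 reads for Esr1, 12.1 to 666 for Areg and 8.92 to 852 for Pgr. The lowest Pgr values therefore rest on few reads.

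The tumours with the highest scores owed them to different markers. The tumour of animal 4036 had the highest score (1.42), with 5.59 RPKM of Esr1 and 0.709 of Pgr, the highest values of both genes, but only 0.215 RPKM of Areg. Animal 3540 came next (1.18) with 1.85 RPKM of Esr1, 0.338 of Pgr and 4.03 of Areg, the highest Areg value. Animal 3273 (0.87) had 2.49 RPKM of Esr1, 0.523 of Pgr and 0.848 of Areg. Animals 4142 and 4144 were high in Pgr, with 0.524 and 0.529 RPKM, while animal 4038 had 4.11 RPKM of Esr1 and 0.229 of Areg. Animal 4511 combined 2.52 RPKM of Esr1 with 2.67 of Areg, and animal 3427 reached the group with 3.04 RPKM of Areg and 0.09 of Pgr. The last members were animals 4438 and 4378, with Pgr at 0.061 and 0.086 RPKM. All 3 markers were above their mean over the 30 tumours in 2 of these 10 tumours.

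The 10 lowest tumours overlapped with the 10 highest in each of the 3 markers. Esr1 ranged from 0.591 to 2.06 RPKM (median 1.44) in them, against 1.36 to 5.59 (median 2.40) in the 10 highest. Pgr ranged from 0.02 to 0.239 RPKM (median 0.066) against 0.061 to 0.709 (median 0.325). Areg ranged from 0.14 to 1.07 RPKM (median 0.40) against 0.215 to 4.03 (median 1.003). All 3 markers were below their mean in 4 of the 10 lowest tumours. The 10th tumour had a score of 0.09 and the 11th of 0.07, and the 20th had -0.33 and the 21st -0.34, so neither border fell at a gap.

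The markers did not name the same tumours. Of the 10 highest by score, 6 were among the 10 highest by Esr1, 7 by Pgr and 6 by Areg, while 2 of them were among the 10 lowest by Areg. Esr1 and Pgr shared 5 of their 10 highest tumours, but 4 tumours in the top 10 for Esr1 were in the bottom 10 for Pgr. Esr1 and Areg shared 3, and 5 tumours in the bottom 10 for Esr1 were in the top 10 for Areg. The plot of the markers by tumour shows this disagreement. A label of hormone-receptor-high tumours therefore holds for Esr1 and Pgr in part of the group only, and the groups are called the 10 highest and 10 lowest tumours by score below.

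**Figure D1:**
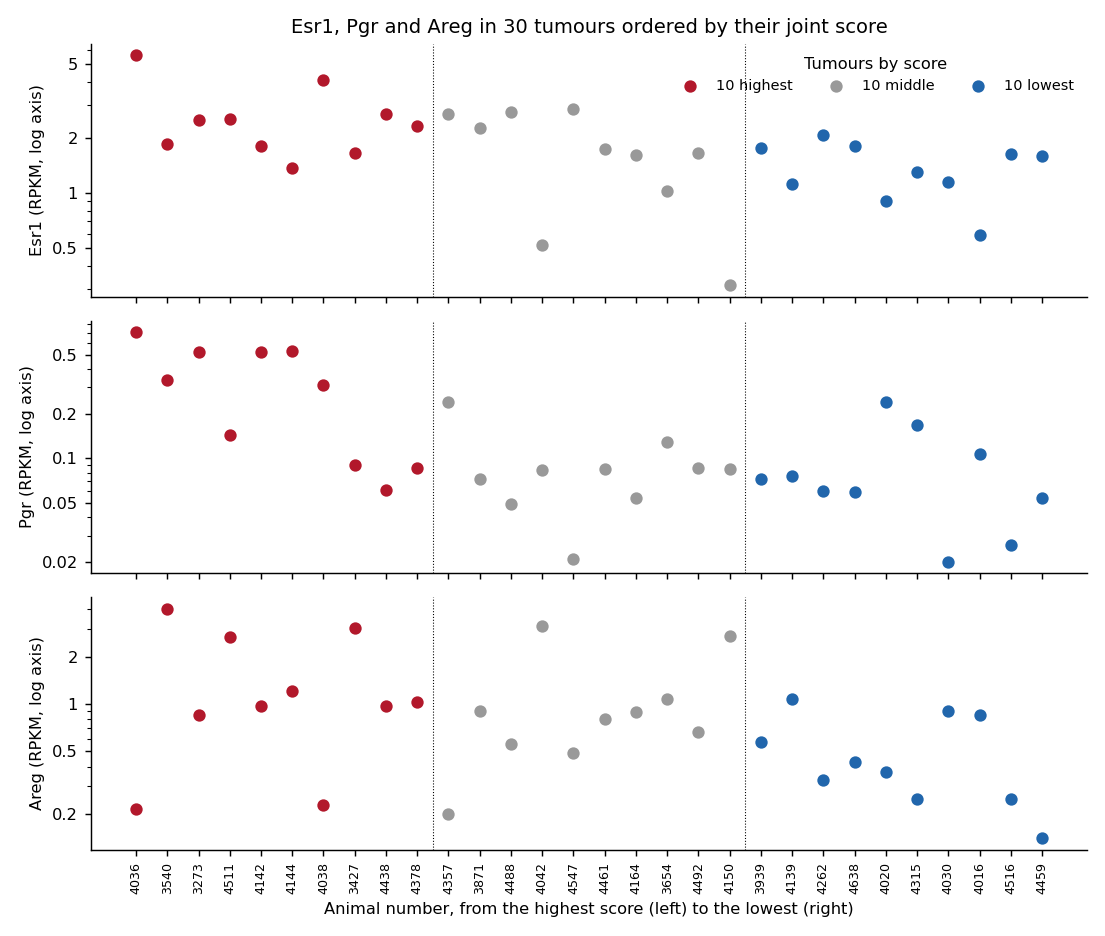
RPKM of Esr1, Pgr and Areg (log axes) in each of 30 tumours, ordered from the highest to the lowest score, with the 10 highest in red, the 10 middle in grey and the 10 lowest in blue. The tumour of animal 4036 is highest for Esr1 and Pgr but has 0.215 RPKM of Areg, and the 3 genes overlap between the groups.

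Library depth and insert size were compared because they could move with the groups. The libraries fell into 16 shallow ones, at an estimated 42.4 to 61.8 M reads, and 14 deep ones, at 116.5 to 196.7 M reads. There were 3 deep libraries among the 10 highest tumours and 5 among the 10 lowest (Fisher's exact test, two-sided, p = 0.65). The mean insert size was 258 ± 16.1 (SD, n = 10) in the 10 highest and 248 ± 15.7 in the 10 lowest, a difference of 10.2 that was within the spread (two-sided permutation test, p = 0.165).

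No gene passed the threshold between the 10 highest and the 10 lowest tumours. Of 13605 genes tested with limma on log2(RPKM + 1), 0 (0%) had a Benjamini-Hochberg adjusted p under 0.05, and the smallest adjusted p was 0.124. At an unadjusted p under 0.05 there were 1345 genes (9.89%), of which 567 (4.17%) had the larger mean in the 10 highest and 778 (5.72%) in the 10 lowest. In no gene were the 2 groups free of overlap (0%). The interaction of group and depth class gave 0 calls with limma, and 551 genes at an unadjusted p under 0.05. On simulated data of the same size, with genes drawn independently and 50 changed at each size, the test recovered 48% of genes with a log2 difference of 0.5. It recovered 88% of those with a difference of 1. Real genes move together, and the share recovered among them was not tested. The simulation also held genes changed by 1.5 and 2, and many changed genes ease the adjusted threshold for the others. The shares recovered therefore do not carry over to this contrast. Differences of 1 or more could therefore also have been missed here. The 10 middle tumours entered the scaling of the score and the filter, but not this contrast. Their slope on the score had the same sign for 80.3% of the 1345 genes, against 63.4% of all tested genes. Genes that move together are not separate observations, so these shares do not test the contrast. The slope within the 10 middle tumours also called 0 genes with limma, and 1280 genes had an unadjusted p under 0.05.

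The gene nearest the threshold was Pik3c2g, which encodes a class II phosphoinositide 3-kinase. In the 10 highest tumours it measured 3.70 RPKM in animal 4036, 2.87 in 3540, 2.68 in 3273, 3.59 in 4511, 1.39 in 4142, 4.04 in 4144, 3.57 in 4038, 3.67 in 3427, 1.36 in 4438 and 0.589 in 4378. In the 10 lowest it ranged from 0.213 to 1.30 RPKM with a median of 0.611. Thus 9 of the 10 highest tumours lay above every one of the 10 lowest, and only animal 4378, the last to enter the group, lay among them. The difference was 1.12 ± 0.19 log2 units (SE; unadjusted limma p = 9.12e-06, adjusted p = 0.124). The difference of Pik3c2g was positive in each alternative that compared high with low tumours, and its adjusted limma p in these ranged from 0.00234 with 8 tumours a side to 0.877 within the shallow libraries. Its slope within the 10 middle tumours was -0.04 log2 units per SD of the score among them. The adjusted limma p of Pik3c2g was 0.00244 without animal 4378, the overlapping tumour, 0.0345 without 4438 and 0.0365 with depth class as a covariate. It was 0.345 without 4036, 0.359 without 4511 and 0.369 after quantile normalization. The middle tumours spread over the range of both groups, with a median of 0.965 RPKM.

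Of the other genes with the smallest p and the larger mean in the 10 highest tumours, none passed the threshold, and their adjusted p lay between 0.388 and 0.393. Ablim1, an actin-binding LIM protein gene, measured 3.14 to 11.5 RPKM (median 5.89) in the 10 highest and 1.43 to 4.16 (median 3.02) in the 10 lowest tumours, a difference of 0.79 ± 0.18 log2 units, and 8 of the 10 highest lay above all of the lowest. Arntl2, a circadian transcription factor gene, had medians of 4.80 and 1.73 RPKM (difference 1.07 ± 0.25). Retsat, which encodes an enzyme that saturates retinol, had medians of 30.98 and 15.6 RPKM (0.77 ± 0.19). The complement factor B gene Cfb had medians of 61.9 and 29.9 RPKM (0.96 ± 0.23), and the complement protease gene C1s2 had 2.52 and 1.47 (0.63 ± 0.16). Ccnd2, encoding cyclin D2, had medians of 4.09 and 2.02 RPKM (0.69 ± 0.16). Rasa3, encoding a Ras GTPase-activating protein, measured above all of the 10 lowest tumours in 9 of the 10 highest, with medians of 8.94 and 5.62 RPKM (0.60 ± 0.15). Orm2, an acute-phase protein gene, Hopx, a homeodomain-only protein gene, the class I histocompatibility gene H2-Q7 and Ghrl, which encodes ghrelin, differed by 0.61, 0.57, 0.62 and 0.48 log2 units.

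The genes with the larger mean in the 10 lowest tumours included a cell adhesion gene and genes of DNA synthesis and repair. Cadm1, encoding a cell adhesion molecule, measured 4.75 to 14.8 RPKM (median 6.87) in the 10 highest and 7.90 to 27.8 (median 14.9) in the 10 lowest, a difference of -0.86 ± 0.19 log2 units. All 10 of the highest tumours lay below the median of the lowest. Tmsb10, which encodes the actin-sequestering thymosin beta 10, had medians of 126 and 175 RPKM (-0.55 ± 0.12). Tyms, encoding thymidylate synthase, had medians of 10.2 and 13.7 RPKM (-0.39 ± 0.09), and the DNA repair gene Ogg1 had 13.9 and 17.4 (-0.31 ± 0.07). Tead4, the gene of a Hippo pathway transcription factor, had medians of 4.14 and 5.99 RPKM (-0.59 ± 0.14). The others nearest the threshold were Nudt21, Brk1, Zfp618, Wdr5, Tulp2 and Mrpl51, with differences from -0.67 in Tulp2 to -0.24 in Brk1. None of these genes passed the threshold.

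Rpl29, a ribosomal protein gene, had the largest difference of these genes (-1.55 ± 0.38 log2 units) and an uneven distribution. It measured between 48.5 and 87.6 RPKM in 11 tumours and between 187 and 514 in the other 19, with none between these ranges. Of the 10 highest tumours 7 were in the lower range, of the 10 middle 3 and of the 10 lowest 1. The lower range held 4 deep and 7 shallow libraries. Ribosomal protein genes have many near-identical processed copies in the genome. The counting rule is not given in the sources used here, so the value is uncertain. Neither the part of such copies nor that of MOLF and FVB segments in these ranges was tested.

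**Figure D2:**
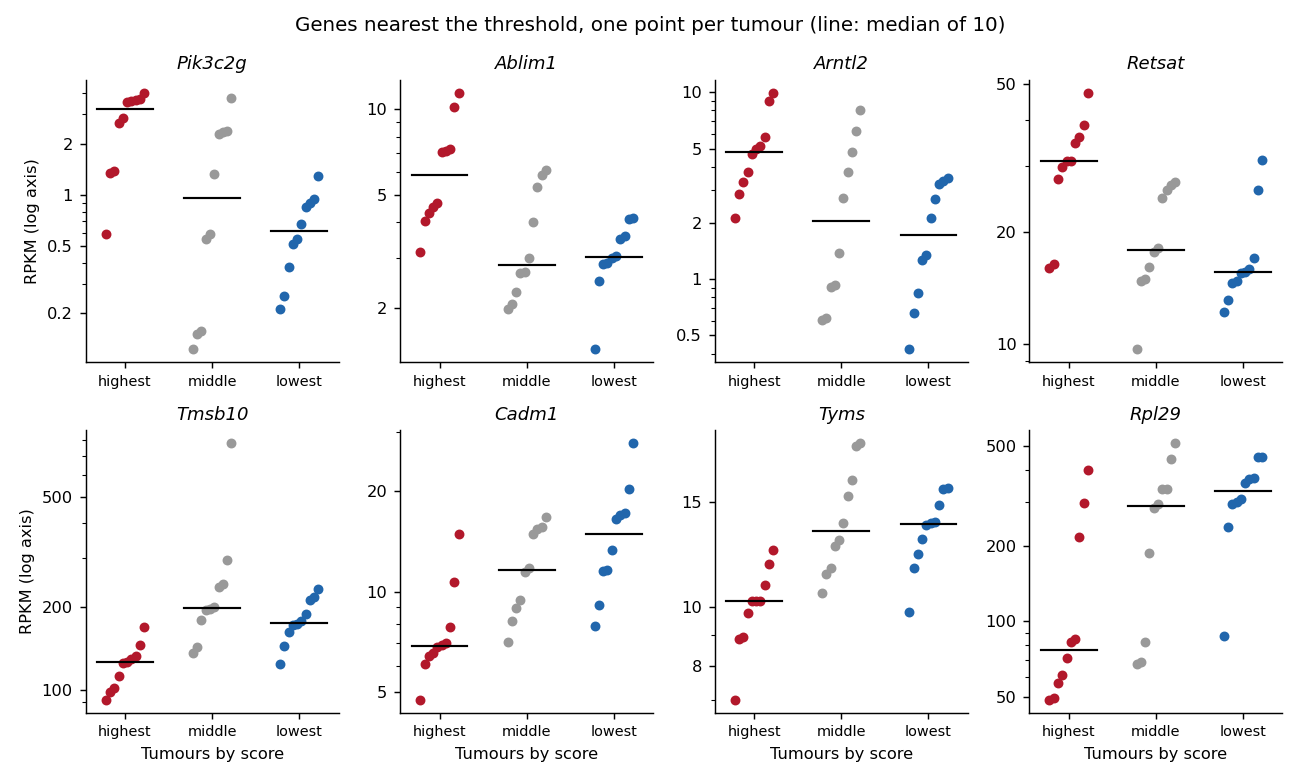
RPKM (log axes) of 8 genes nearest the threshold in the 10 highest, 10 middle and 10 lowest tumours by score, with a point per tumour and a line at the median. Pik3c2g lies above all of the 10 lowest tumours in 9 of the 10 highest, and Rpl29 falls in 2 separate ranges.

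The genes nearest the threshold were unevenly spread over the chromosomes. Of the 24 genes just described, 11 lie on chromosome 6, which holds 4.72% of the tested genes: Pik3c2g, Arntl2, Ccnd2, Retsat, Ghrl and C1s2 with the larger mean in the 10 highest tumours and Tmsb10, Brk1, Ogg1, Tead4 and Mrpl51 with the larger mean in the 10 lowest. Among the 50 tested genes with the smallest p, 14 (28%) lay on chromosome 6, and the next chromosome, 4, held 5. Along chromosome 6 the share of genes with an unadjusted p under 0.05 was 9.94%, 12.4%, 16.9% and 20.6% in 4 successive blocks of 160 or 161 genes, in the gene order of RefSeq on GRCm38.p6, against 9.89% over all tested genes. In the last block 15 such genes had the larger mean in the highest tumours and 18 in the lowest. None of the 3 markers lies on this chromosome.

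This pattern held in some rankings and not in others. Without animal 4036, 15 of the 50 genes with the smallest p lay on chromosome 6, with depth class as a covariate 16 did, and with 8 tumours a side 10 did. With 15 tumours a side there were 4, with the score without Areg 3, without Pgr 4 and without Esr1 0. Among the 100 genes with the smallest p chromosome 6 held 12, 10, 7 and 4 in these rankings, against 16 in the ranking by score. Without Areg, chromosome 9 held 10 of the 100 as well. When tumours were ranked by Esr1 alone, 3 of the 50 and 3 of the 100 lay on chromosome 6. When they were ranked by Areg alone, chromosome 9 held 14 of the 50 genes, where 5.60% of the tested genes lie, and chromosome 6 held 2. The genes with the smallest p in the ranking by Areg included Maml2, a Notch coactivator gene (-0.54 ± 0.10 log2 units, limma adjusted p = 0.299), Scaper (-0.41 ± 0.09) and Gramd1b (-0.77 ± 0.18) on chromosome 9. The casein genes Csn2 (5.14 ± 1.24) and Csn1s2a (4.44 ± 1.19), on chromosome 5 like Areg itself, were also among them, with the larger mean in the Areg-high tumours. None of the tested genes passed the threshold in the ranking by Areg, and 1083 had an unadjusted p under 0.05. The MOLF and FVB segments that each animal carried are not given in the labels, and their part in these counts was not tested.

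**Figure D3:**
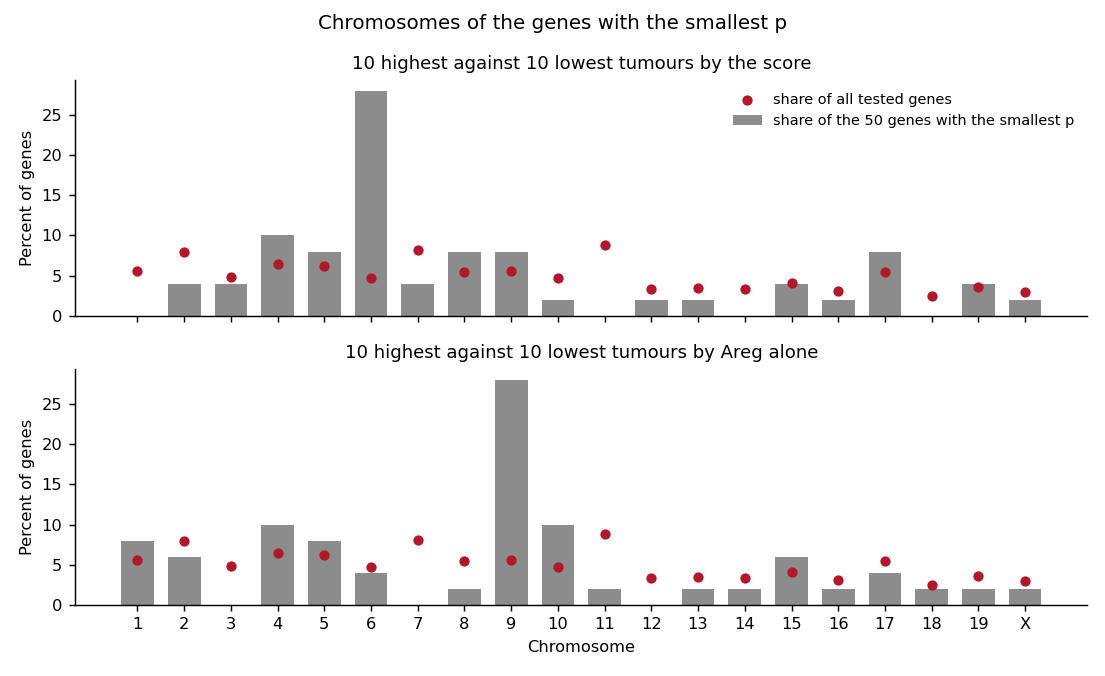
Percent of the 50 genes with the smallest p on each chromosome (bars) and percent of all tested genes (red points), for tumours ranked by the score and by Areg alone. Chromosome 6 holds 28% of the genes in the ranking by score and chromosome 9 holds 28% in the ranking by Areg.

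No known partner of the receptors passed the threshold between the tumours ranked by score. Of 16 genes of the hormone-sensing luminal list, 11 reached a mean of 1 RPKM and were tested. Those below the filter included the pioneer factor gene Foxa1 (mean 0.575 RPKM), the transcription factor gene Tbx3 (0.523), Calca (0.137) and Tnfsf11 (0.122), which encodes RANKL. None of the 11 passed the threshold. An unadjusted limma p under 0.05 was found in 3, all with the larger mean in the highest tumours, against 9.89% of all tested genes. The median difference was 0.15 log2 units, against -0.02 over all tested genes. Cited1, a transcriptional coactivator gene typical of hormone-sensing cells, measured 1.46 to 6.32 RPKM (median 3.40) in the 10 highest and 0.88 to 2.80 (median 1.78) in the 10 lowest tumours, and 6 of the highest lay above all of the lowest. Its difference was 0.63 ± 0.20 (limma adjusted p = 0.454). Prlr, the prolactin receptor gene, had medians of 11.7 and 9.87 RPKM (0.32 ± 0.11), and all 10 of the highest tumours lay above the median of the lowest. Fxyd2, a subunit gene of the sodium pump, had medians of 6.37 and 3.24 RPKM (0.67 ± 0.30). Gata3, the master regulator gene of luminal cells, was nearly level with medians of 66.9 and 65.2 RPKM (0.12 ± 0.12).

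Targets of the receptors included differences in both directions, and none passed the threshold. Of 20 oestrogen receptor targets 18 were tested, and Greb1 and Tff3 were below the filter with means of 0.311 and 0.315 RPKM. None passed the threshold, 1 had an unadjusted p under 0.05 in each direction, and the median difference was 0.06 log2 units. Ccnd1, encoding cyclin D1, had medians of 62.2 and 55.5 RPKM in the highest and lowest tumours (0.33 ± 0.15), and Agr2, which encodes a protein disulphide isomerase, had 1.05 and 1.90 (-0.59 ± 0.26). The stress-response factor gene Xbp1 (0.14 ± 0.11), Myc (0.04 ± 0.17), the trefoil factor gene Tff1 (0.21 ± 0.17), the insulin-like growth factor receptor gene Igf1r (0.07 ± 0.14) and the cathepsin D gene Ctsd (-0.09 ± 0.10) differed by less than 2 standard errors.

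Of 10 progesterone receptor targets 7 were tested, none passed, and the median difference was 0.01 log2 units. Stat5a, a transcription factor gene of the prolactin pathway, measured 40.7 to 68.5 RPKM (median 47.5) in the highest and 28.4 to 49.6 (median 40.2) in the lowest tumours (0.38 ± 0.11, unadjusted limma p = 0.00218), and all 10 of the highest lay above the median of the lowest. Fkbp5, a steroid receptor chaperone gene that progesterone and glucocorticoids induce, had the opposite order, with medians of 15.1 and 21.1 RPKM (-0.40 ± 0.12, p = 0.00267). Id4, a helix-loop-helix inhibitor gene, differed by 0.29 ± 0.13 and Wnt4, a paracrine signal of progesterone, by -0.03 ± 0.18. Of 21 receptor cofactors and nuclear receptors 18 were tested and none passed; the glucocorticoid receptor gene Nr3c1 was the only one with an unadjusted p under 0.05 (0.24 ± 0.10). Esr2, the gene of the second oestrogen receptor, had a mean of 0.784 RPKM and was not tested.

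No gene of the ErbB family, through which amphiregulin acts, passed the threshold in the ranking by score. Of 14 receptors, ligands and the sheddase 10 were tested, 0 passed the limma threshold, 0 had an unadjusted p under 0.05, and the median difference was 0.04 log2 units. Egfr, the receptor of amphiregulin, differed by 0.14 ± 0.18, Erbb2 by -0.04 ± 0.13 and Erbb3 by -0.08 ± 0.11. Adam17, the protease that releases amphiregulin, had medians of 32.3 and 33.7 RPKM (-0.03 ± 0.06). Among the other ligands Tgfa differed by 0.33 ± 0.18 and Nrg4 by 0.18 ± 0.13, while Ereg, with a mean of 0.048 RPKM, and Erbb4, with 0.369, were below the filter.

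The adipocyte and skeletal muscle lists had larger median differences than the hormone lists. Over all tested genes 9.89% had an unadjusted limma p under 0.05 in this ranking, 4.17% with the larger mean in the highest and 5.72% in the lowest tumours. Of 12 adipocyte genes 11 were tested, and all 11 had an unadjusted p under 0.05 and the larger mean in the highest tumours. Their median difference was 1.38 log2 units, but none passed the threshold (smallest limma adjusted p = 0.454). The summed level of the adipocyte list ranged from 115 to 3607 RPKM (median 604) in the 10 highest and from 101 to 678 (median 214) in the 10 lowest tumours, and no member was at 0 in all tumours. Car3, a carbonic anhydrase gene abundant in fat, had medians of 197 and 44.6 RPKM (1.92 ± 0.72) and the adiponectin gene Adipoq differed by 1.40 ± 0.55. Of 10 basal and myoepithelial genes 4 had an unadjusted p under 0.05, all with the larger mean in the highest tumours; the smooth-muscle contractile genes Myh11 (1.13 ± 0.29), Acta2 (1.07 ± 0.31) and Cnn1 (0.94 ± 0.23) were among them, whereas the basal keratin genes Krt5 and Krt14 had differences of 0.11 ± 0.28 and -0.30 ± 0.30. All 22 proliferation genes had the larger mean in the lowest tumours, 8 of them with an unadjusted p under 0.05, and the median difference was -0.27. The skeletal muscle list had a median difference of 1.49 with 0 of 13 genes under an unadjusted p of 0.05 in limma, and its summed level ranged from 37.9 to 17852 RPKM within the 10 highest tumours alone. In bulk tissue, more cells of a type and more RNA per cell cannot be told apart. With stroma matrix and adipocyte scores as covariates limma called 0 genes in this ranking. At an unadjusted p under 0.05 there were then 1011 genes, 298 higher and 713 lower in the highest tumours. These scores are the mean scaled levels of each list's own tested genes. Whether cell types caused the differences of other genes was not tested.

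Taking the score as a continuous measure over all 30 tumours gave calls, and their number fell most without animal 4036. The slope called 599 genes (4.4%), 359 positive (2.64%) and 240 negative (1.76%), and gave 2843 at an unadjusted p under 0.05 (20.9%; 9.35% positive and 11.5% negative). The calls included all 11 adipocyte genes, 7 of 11 endothelial, 5 of 18 stroma matrix, 4 of 22 proliferation and 2 of 11 hormone-sensing genes. Without animal 4036 the slope called 0 genes with limma, with 2006 at an unadjusted p under 0.05. The slopes themselves changed less in some lists. Per SD of the score over the 30 tumours, the adipocyte median went from 0.85 to 0.74 log2 units, with all 11 genes at an unadjusted p under 0.05. The endothelial median went from 0.23 to 0.21, with 9 of 11, and the stroma matrix median from 0.30 to 0.17, with 3 of 18. Over all tested genes that share was 14.7% without animal 4036. Without animal 3273 the slope called 103 genes; without 4142, 4144 or 4459 it called 334, 357 and 313, and without 4438 it called 995. The tumour of animal 4036 had the highest summed levels of the stroma matrix list (7391 RPKM) and of the adipocyte list (3607 RPKM) and the lowest of the proliferation list (580 RPKM) of all 30. With the stroma matrix and adipocyte scores as covariates the slope called 0 genes. The adipocyte and stroma matrix genes could not keep their calls in that fit, because they make up the covariates.

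The 3 markers were then used one at a time, an alternative chosen after the values had been seen. Ranking by Esr1 alone gave 2 calls with limma, Ablim1 and the tissue factor gene F3, ranking by Areg alone 0, and ranking by Pgr alone 980. Leaving Areg out of the score gave 25 calls (0.184%), 22 with the larger mean in the tumours high in Esr1 and Pgr (0.162%) and 3 with the smaller (0.0221%). At an unadjusted p under 0.05 there were 2396 genes (17.6%), 9.42% higher and 8.19% lower. Among the 22 that were higher were genes of fat metabolism (Acacb, Acsl1, Fasn, Plin4 and Pcx), the smooth-muscle genes Cnn1 and Myh11, Cyp24a1, which encodes the vitamin D 24-hydroxylase, Adh1, Cfb, Ablim1 and Pik3c2g, and the 3 that were lower were Alkal2, Rpl29 and Tgif2. In that ranking insert size differed by 19.8 between the groups (two-sided permutation test, p = 0.0264), and its part in the calls was not tested.

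Ranked by Pgr alone, the tumours differed in 16 of 22 proliferation genes, 5 of 11 endothelial genes and 4 of 18 stroma matrix genes. With stroma matrix and adipocyte scores as covariates limma called 0 genes, with 1082 at an unadjusted p under 0.05. For the stroma matrix list this loss was built in, because its own genes make up the score. Within the deep libraries, with 4 tumours a side, limma also called 0 genes, with 1221 at an unadjusted p under 0.05. The 10 highest by Pgr had 0.143 to 0.709 RPKM and shared 7 tumours with the 10 highest by score, but 2 of them were among the 10 lowest by score. The 10 lowest by Pgr had 0.02 to 0.072 RPKM and shared 5 with the 10 lowest by score, and 1 of them was among the 10 highest by score. Animals 3871 and 3939 tied at 0.072 RPKM, and sample order alone put 3871 and not 3939, a tumour low by score, into the Pgr-low group. Of the 13605 tested genes 980 (7.2%) passed the threshold, 316 of them higher (2.32%) and 664 lower (4.88%) in the Pgr-high tumours, and 3610 (26.5%) had an unadjusted p under 0.05, 11.6% higher and 15% lower. The groups did not overlap in 4 genes that were higher, Slc5a3, Pitpnc1, Nr3c1 and Fbxl17 (0.0294%), and in 3 that were lower, Cct7, Nelfe and Ubl4a (0.0221%). The glucocorticoid receptor gene Nr3c1 measured 17.5 to 22.8 RPKM (median 18.3) in the Pgr-high and 12.2 to 15.4 (median 14.7) in the Pgr-low tumours (0.39 ± 0.06, limma adjusted p = 0.00853). Slc5a3, a sodium and myo-inositol transporter gene, measured 7.04 to 13.5 against 3.74 to 6.56 RPKM (0.74 ± 0.11, adjusted p = 0.00853).

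The hormone lists had shares of calls that can be read only against the 7.2% of all tested genes called by Pgr. None of the tested hormone-sensing, oestrogen receptor target or progesterone receptor target genes passed the threshold in the ranking by Pgr, and 4 of 11, 3 of 18 and 0 of 7 had an unadjusted p under 0.05 in limma, against 26.5% of all tested genes. With lists this short, these counts do not set the hormone genes apart from the rest. Nr3c1 was the only receptor cofactor or nuclear receptor gene and Egfr the only ErbB family gene that passed; Egfr measured 7.31 to 17.3 RPKM (median 10.96) in the Pgr-high and 5.27 to 11.5 (median 7.12) in the Pgr-low tumours (0.57 ± 0.14, limma adjusted p = 0.0251). Irs1, the insulin receptor substrate gene, was higher with medians of 8.04 and 2.98 RPKM (1.006 ± 0.18, adjusted p = 0.00903), and Tspan8, a tetraspanin gene, with 38.6 and 12.6 (1.71 ± 0.32, adjusted p = 0.00912). The retinol-binding protein gene Rbp4 (1.83 ± 0.47), the triglyceride synthesis gene Dgat2 (1.75 ± 0.49), the autotaxin gene Enpp2 (1.38 ± 0.39) and the mesenchymal transcription factor gene Tbx15 (1.28 ± 0.38) were also higher.

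Proliferation genes were lower in the Pgr-high tumours. Of 22 tested, 16 passed the threshold and were lower, against 4.88% of all tested genes, and 0 were higher. The median difference was -0.51 log2 units against -0.01 over all tested genes. The replication helicase genes Mcm2 (medians 21.7 and 32.9 RPKM, -0.54 ± 0.10) and Mcm7 (51.2 and 72.4, -0.47 ± 0.08) and the mitotic genes Ccnb1 (28.4 and 44.3, -0.59 ± 0.12) and Cdc20 (51.0 and 81.7, -0.62 ± 0.13) fell in this group, as did Lmnb1, encoding lamin B1 (33.9 and 51.5, -0.61 ± 0.10), and Cdca8, a mitotic chromosome gene (28.6 and 43.6, -0.60 ± 0.10). Of 14 ribosomal protein genes 8 were lower, with a median difference of -0.32. Of 6 keratinised epithelium genes 2 were lower, Krtdap (-1.74 ± 0.50) and Sbsn (-0.91 ± 0.23). The epithelial genes S100a14 (medians 4.47 and 14.2 RPKM, -1.44 ± 0.26), Krt17 (-0.998 ± 0.27), Krt79 (-1.013 ± 0.24) and Cldn4 (-0.87 ± 0.24) were lower as well, as was the fatty acid-binding protein gene Fabp5 (-0.87 ± 0.19). Krt17 was the only gene called of 10 in the basal and myoepithelial list, where 5 had a positive difference (median 0.01). Cldn4 was the only gene called of 10 in the simple luminal list, where 1 had a positive difference (median -0.23).

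Some stromal, vascular and fat genes were higher in the Pgr-high tumours, and most members of these lists did not pass the threshold. Over all tested genes 2.32% were called higher in this ranking. Of 18 stroma matrix genes 4 were higher, Col3a1 (medians 328 and 210 RPKM, 1.13 ± 0.34), Dcn (1.05 ± 0.30), Lum (0.97 ± 0.27) and Postn (0.94 ± 0.27), and none was lower. Of 11 endothelial genes 5 were higher, among them Kdr, the gene of the main receptor of vascular endothelial growth factor (medians 5.14 and 3.76 RPKM, 0.57 ± 0.14), and Tek, the angiopoietin receptor gene (0.65 ± 0.17). Of 11 adipocyte genes 3 were higher, Retn (1.75 ± 0.45), Plin4 (1.49 ± 0.43) and Pparg (1.08 ± 0.31). The macrophage receptor gene Csf1r (0.55 ± 0.16) and Cd74, encoding the class II invariant chain (1.014 ± 0.25), were higher too. Csf1r was the only gene called of 11 in the macrophage list (median difference 0.25). Cd74 was the only gene called of 12 in the luminal progenitor and alveolar list (median difference 0.21). The summed adipocyte level ranged from 101 to 3607 RPKM (median 801) in the Pgr-high tumours against 82.8 to 678 (median 148), and the summed stroma matrix level from 1403 to 7391 (median 1958) against 421 to 1983 (median 1242).

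The number of calls by Pgr changed when single animals were left out and when stroma matrix and adipocyte scores were added to the fit. Without animal 4036 there were 331 calls among the 13605 tested genes, 80 higher and 251 lower. The calls included 14 of 22 proliferation and 1 of 14 ribosomal protein genes, all lower, and 1 of 11 endothelial genes, higher. No stroma matrix, adipocyte or keratinised epithelium gene was then called with limma, and 16 of 18, 9 of 11 and 6 of 6 had an unadjusted p under 0.05. Over all tested genes 3048 (22.4%) had such a p in that fit. Without 3273, 4164, 4459 or 4547 there were 627, 642, 542 and 515. Within the shallow libraries 278 of 13605 genes were called, 88 higher and 190 lower, and 11 of 22 proliferation genes were among the lower ones. Within the deep libraries, with only 4 tumours a side, 0 were called with limma. The median difference of the proliferation list there was -0.49, against -0.51 with both depth classes. In that fit 9 proliferation genes had an unadjusted limma p under 0.05, against 8.97% of all tested genes. With the stroma matrix and adipocyte scores as covariates 0 genes were called. For the stroma matrix and adipocyte lists that outcome was built in, because the scores are made of their genes. In the proliferation list the median difference was -0.36. Of its 22 genes 15 had an unadjusted limma p under 0.05, against 7.95% of all tested genes.

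**Figure D4:**
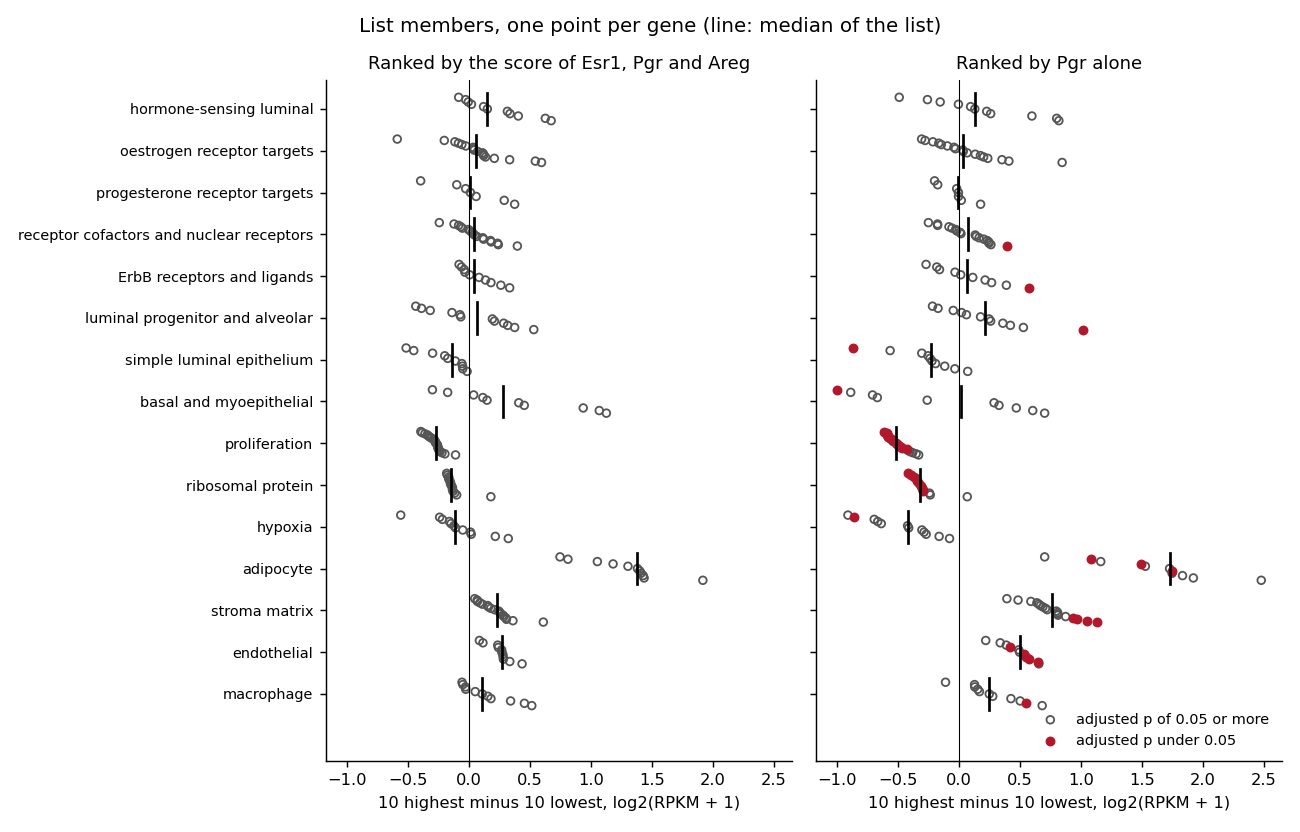
Difference between the 10 highest and 10 lowest tumours in log2(RPKM + 1) for each tested member of 15 gene lists, ranked by the score (left) and by Pgr alone (right), with filled red points for genes with an adjusted p under 0.05 and a line at the median of each list. No gene passed in the ranking by score, and 16 of 22 proliferation genes were lower in the ranking by Pgr.

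**Figure D5:**
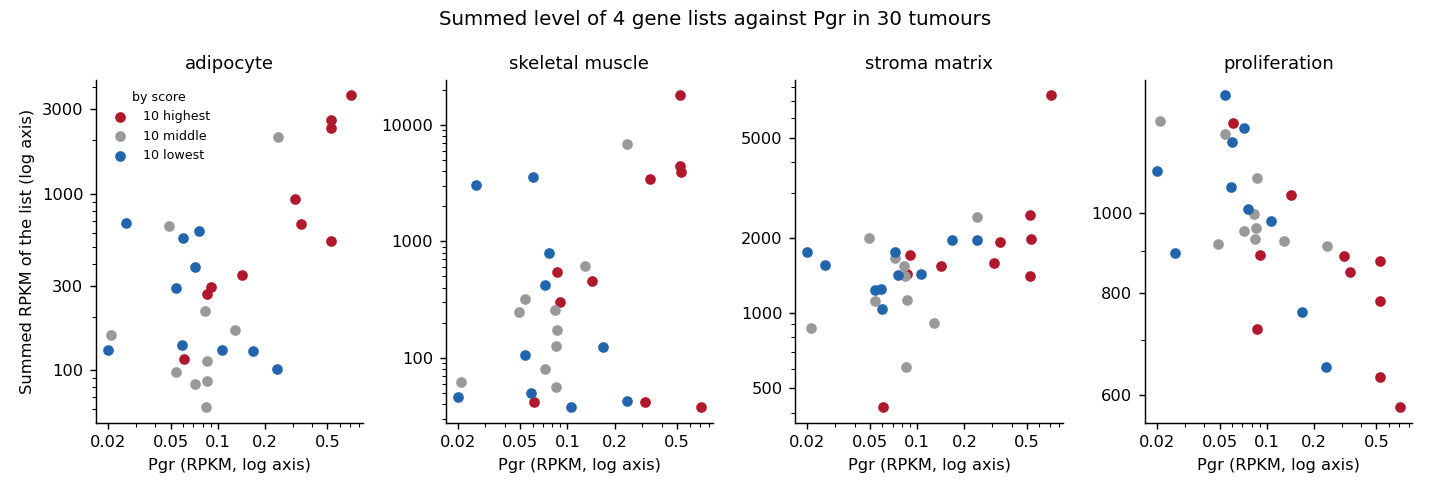
Summed RPKM of the adipocyte, skeletal muscle, stroma matrix and proliferation lists against Pgr (log axes) in 30 tumours, coloured by the score group. The tumour of animal 4036 is highest for Pgr and for the adipocyte (3607 RPKM) and stroma matrix (7391 RPKM) lists and lowest for proliferation (580 RPKM).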

How the data were processed

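The deposited table holds RPKM values for 27902 RefSeq transcripts in 30 libraries; no label states the unit, and it was taken as RPKM because low values times transcript length came in even steps. The submitters' processing notes list CASAVA 1.7.0; not given in the sources used here were aligner settings, genome build and annotation. Transcripts were named with RefSeq (GRCm38.p6, 26490) and GENCODE vM21 (154), and 1258 unnamed transcripts (1.94% of the summed RPKM) and 707 small-RNA transcripts were left out. Each of the remaining 20834 genes was represented by the transcript with the highest mean; 389 shared all their values with a further gene. Between 72.1 and 84.9% of the low values came within 0.12 of whole reads (24% by chance), too few for a count test, so the recovered depths are estimates, and the depth class was set at their largest gap.

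Genes averaging 1 RPKM or more over 30 tumours, apart from Esr1, Pgr and Areg, were tested on log2(RPKM + 1) with limma 3.58.1 in R 4.3.3 (empirical Bayes with trend, two-sided, Benjamini-Hochberg adjustment, threshold 0.05). This scale understates changes of low genes. Errors after a difference are SE. Python 3.11.15 with numpy 2.4.6, scipy 1.17.1, pandas 2.3.3 and matplotlib 3.10.9 was used for the rest. The test was tried on simulated data for 13605 genes drawn independently of each other, where 5.11% of the genes it called were false.

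The members, the 23 gene lists and the tests were chosen with earlier results of these data known. Named genes are, for each list, up to 6 members past the threshold and the 2 with the highest mean; every tested member of the hormone-sensing, oestrogen target, progesterone target and ErbB lists; the 12 genes in each direction with the smallest p; and, among those past the threshold, the 5 in each direction with the largest difference. A selection is given, and unnamed predicted genes, pseudogenes and genes with another gene's values were passed over. Genes named from the ranking without Areg or by Areg alone, genes without overlap, and list members named for a small unadjusted p or for falling below the filter were chosen after their values were seen. Alternatives covered the pseudocount, filter, normalization, cut and make-up of the score, covariates, depth classes and each tumour left out.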

Additional observations from a re-analysis of the deposited data

Results flagged for a closer look

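Within the 10 highest and the 10 lowest tumours, 24 of 214 sets of 10 values of a named gene held 1 tumour apart from the other 9, where chance gives about 1 in 20. Dixon's test at 95% was used. Animal 4030, of the 10 lowest, stood apart in 6 genes. The interferon-induced genes Bst2 and Irf7 measured 263.179 and 96.962 RPKM there, against next values of 57.2 and 34.7, and Igfbp4 measured 94.666 (next 50.6). The same tumour was lowest in Gata3 with 37.432 (next 55.8), Wnt5a with 3.068 (next 6.12) and Ablim1 with 1.431 (next 2.49).

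Animal 4438, of the 10 highest, stood apart in 5 genes. The glycolysis gene Pgk1 measured 287.76 RPKM (next 147), the replication clamp gene Pcna 166.127 (next 108), the stress keratin gene Krt6a 36.382 (next 6.19), Hopx 3.312 (next 1.72) and Nrg2 1.197 (next 4.05). Animal 4459, of the 10 lowest, had 18732.4 RPKM of the salivary gene Bpifa2 (next 0.534), 5482.52 of Smr3a (next 7.87) and 11.08 of Fxyd2 (next 4.55). Its summed level of the salivary and lacrimal list was 30340 RPKM.

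The remaining values came from 1 gene in each of 10 further tumours. In the 10 highest they were Bpifa2 in animal 4378 (2.872 RPKM, next 1.05), Brk1 in 4142 (94.741, next 80.2), Ghrl in 3540 (1.283, next 2.38), Id4 in 4036 (2.537, next 1.45) and Mapt in 3273 (2.464, next 1.34). In the 10 lowest they were C1s2 in 3939 (2.83, next 1.81), Ccnd2 in 4020 (4.814, next 2.90), Csn3 in 4262 (1693.01, next 3800), Rpl29 in 4315 (87.554, next 238) and Slc9a3r1 in 4016 (62.914, next 73.4).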

How the results depend on the processing

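Between the 10 highest and 10 lowest tumours by score, 0 genes were called by limma, 1 with 8 tumours a side, 1 with depth class as a covariate, 2 when ranked by Esr1 alone, 25 with the score without Areg and 599 for the slope over 30 tumours. All the other settings run gave 0, and leaving out 1 tumour at a time gave 0 to 2. Of 107 genes named from this ranking, 84 changed sign in at least 1 alternative and 32 passed the threshold in at least 1. The slope called 548 genes with depth class as a covariate, 0 with the stroma matrix and adipocyte scores as covariates, and 0 to 995 with 1 tumour left out.

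Ranked by Pgr alone, 980 genes were called, 457 after quantile normalization, 1832 for the slope on Pgr and 331 to 1374 with 1 tumour left out. There were 0 calls with stroma matrix and adipocyte scores as covariates, 0 in deep libraries alone (4 tumours a side) and 278 in shallow libraries alone. The 66 called genes named from it kept their direction in every alternative run, and each lost its call in at least 1. The insert size difference of 10.2 became -0.56 for the score without Esr1 (permutation p = 0.942) and 19.78 without Areg (p = 0.0264). The percent of deep libraries, 20 points lower in the highest tumours, was 0 points apart for the score without Esr1 and for Pgr alone. The cause of these changes was not tested. Pgr below 1 RPKM in every tumour, down to an estimated 8.92 reads, limits any ranking that uses it.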
